A study of Mus musculus with 18 samples.

Results

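Potassium channel genes were taken as the protein-coding genes of the count table whose mouse symbol, matched from the Ensembl identifier, starts with Kcn, with Kcnj10 left out. They numbered 93 of 54532 genes, or of 21995 protein-coding genes, and fell into 21 families by prefix. They were followed in 18 RNA-seq libraries from retinas of rd1 mice on the FVB strain at postnatal day 30. The rd1 allele, a mutation of Pde6b that kills rods and later cones, was carried by every group, so no group stands for a healthy retina. Eyes had received subretinal AAV8-GFP alone, or AAV8-GFP with AAV8-TGFB1, which delivers transforming growth factor beta 1, and no uninjected group was analysed here. Retinas were dissociated with papain, and antibody-stained microglia and non-microglia were sorted into lysis buffer and made into polyA libraries by a modified Smart-Seq2 protocol. There were 7 GFP and 7 TGFB1 libraries of microglia, and 2 GFP and 2 TGFB1 libraries of non-microglia. The labels name neither the promoters of the viral transgenes nor the antibodies of the sort. Nor do they tie libraries to animals, so a p-value here weighs a difference against the variation among libraries, part of which may be technical.

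Potassium channels let potassium leave or enter cells along its gradient and so set the resting potential, shape the action potential and buffer extracellular potassium. The family holds voltage-gated channels, inward rectifiers, calcium-activated channels and tandem-pore leak channels, with accessory subunits that change gating or traffic. Microglia are known for a leak current carried by Kcnk13 and for currents of inward rectifiers and of Kcna and Kcnn channels in activated states, while retinal neurons, Mueller glia, pigment epithelium and pericytes use other members.

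Every member had at least 1 count, and 37 to 69 members had a count in each library, in totals of 1582451 to 3064027 counts. Values are given as CPM, counts per 1000000 counts of a library after scaling, on one scale for all 18 libraries. Of the microglia markers, 8 of 8 were higher in microglia, with summed levels of 34240 to 42500 CPM in the 14 microglia libraries against 56.9 to 69.7 CPM in the 4 non-microglia libraries. Summed markers of bipolar cells were 11.7 to 191 CPM in microglia against 1248 to 2167 CPM in non-microglia, and those of photoreceptors 1.56 to 104 against 736 to 1709 CPM. Ganglion cell markers that passed the filter, 3 of 6, went the other way. Of these, 2 were called higher in microglia in each treatment, but only 1 was called in both. Sums over the 6 were 19.6 to 60.1 CPM in microglia against 11.8 to 19.7 CPM in non-microglia. Of 3 tested pigment epithelium markers, 1 was also called higher in microglia. In such bulk samples, fewer cells of a type and less RNA per cell cannot be told apart.

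Promoter sequence was looked at for members that differed between the fractions. Kcnk6, Kcnd1 and Kcnk9 were not matched. RefSeq windows of GRCm38.p6, from 250 bases before a start to 50 after it, were found for 68 of the 93 members, some with several starts. The letters GAGGAAG, a core bound by the myeloid factor PU.1, were searched on both strands. They stood in 13.6% of all 32851 windows of this length and in 14% of the members' windows. They stood in 2 of 5 windows of members higher in microglia and in 4 of 26 windows of members lower there. The bases before the start are shown for the 2 microglial members Kcnk13 and Kcnj2 and for Kcnk1, the member highest per length in non-microglia, with the searched letters in capitals.
Kcnk13, chr12:99964249-99964498, plus strand: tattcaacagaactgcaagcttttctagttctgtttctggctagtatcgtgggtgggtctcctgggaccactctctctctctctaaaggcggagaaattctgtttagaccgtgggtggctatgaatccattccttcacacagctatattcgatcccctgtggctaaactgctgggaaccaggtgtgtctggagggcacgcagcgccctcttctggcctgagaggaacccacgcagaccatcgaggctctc
Kcnj2, chr11:111065914-111066163, plus strand: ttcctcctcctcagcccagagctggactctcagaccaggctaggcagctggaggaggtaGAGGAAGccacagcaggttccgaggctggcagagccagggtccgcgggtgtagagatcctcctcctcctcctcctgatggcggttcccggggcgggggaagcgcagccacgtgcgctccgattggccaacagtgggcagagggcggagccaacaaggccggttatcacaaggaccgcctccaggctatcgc
Kcnk1, chr8:125994852-125995101, plus strand: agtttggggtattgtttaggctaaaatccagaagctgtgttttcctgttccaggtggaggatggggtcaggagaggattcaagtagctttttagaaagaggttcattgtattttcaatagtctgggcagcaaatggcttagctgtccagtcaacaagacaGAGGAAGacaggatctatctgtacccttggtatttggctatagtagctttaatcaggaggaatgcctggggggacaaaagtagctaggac
The letters began 191 bases before the start of Kcnj2 and 90 bases before that of Kcnk1, and were not in the window of Kcnk13. Both a microglial and a non-microglial member thus held them, and a match of letters is not evidence of binding.

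The fractions differed in the summed level of these genes. Members took 0.0235% to 0.0450% of the unscaled counts of microglia libraries and 0.107% to 0.117% of those of non-microglia libraries. The CPM below are after scaling and are not these shares. Members summed to 346 ± 62.8 CPM (SD, n = 7) in GFP microglia and 344 ± 31.5 CPM (SD, n = 7) in TGFB1 microglia. In non-microglia they summed to 843 ± 28.7 CPM (SD, n = 2) with GFP and 893 ± 21.4 CPM (SD, n = 2) with TGFB1. All 14 microglia libraries lay below all 4 non-microglia libraries, between 265 and 468 CPM against 822 to 908 CPM. The microglial sum was concentrated in 4 genes: Kcnk13, Kcnk6, Kcnd1 and Kcnj2 gave 68.8 ± 12.7% of it with GFP and 72.2 ± 10.4% with TGFB1 (SD, n = 7 each). In non-microglia the same 4 genes gave 0.358% and 0.691% of the sum. There Kcnk1, Kcnma1, Kcnn2 and Kcne2 gave 53.0 ± 2.92% with GFP and 52.7 ± 1.58% with TGFB1 (SD, n = 2 each).

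Compared per kilobase of annotated exon, Kcnk13 was the highest member of GFP microglia at 38.1 ± 10.9 CPM per kb (SD, n = 7). Kcnk6 followed at 12.3 ± 2.21, Kcnd1 at 7.93 ± 1.84 and Kcnj2 at 4.34 ± 0.823 CPM per kb. The libraries of Kcnk13 lay above all those of Kcnk6, while Kcnk6 and Kcnd1, and Kcnd1 and Kcnj2, overlapped slightly. The next places, Kcnab3 at 1.61, Kcnk1 at 1.601, Kcna3 at 1.41 and Kcnrg at 1.35 CPM per kb, had SDs of 0.831 to 1.79 and could not be put in order. In GFP non-microglia the first places per kilobase were held by Kcnk1 at 80.7 ± 3.32 and Kcne2 at 36.2 ± 8.39 CPM per kb (SD, n = 2). Kcnn2 at 11.4, Kcne1l at 8.89, Kcnab2 at 7.05, Kcnma1 at 6.93 and Kcnj8 at 6.84 CPM per kb were among the next places, with SDs of 0.802 to 5.03.

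Microglia were compared with non-microglia within each treatment, to show which channels belong to which fraction. In GFP retinas 8 members were higher in microglia and 26 lower, of 41 that passed the filter on low counts (edgeR quasi-likelihood test, Benjamini-Hochberg adjusted p under 0.05). Of all 15321 genes tested, 64.2% were called, 29.9% higher and 34.2% lower, against 19.5% and 63.4% of the members. In TGFB1 retinas, whose libraries are separate ones, the counts were again 8 and 26 of 41, against 65.2% of all genes called, 30.8% higher and 34.4% lower. The libraries of the fractions did not overlap for 32 members (78%) with GFP and 33 (80.5%) with TGFB1, against 63.4% and 64.5% of all genes. The same 8 were higher in both treatments, and 25 were lower in both. The median log2 difference of the members was -2.47 with GFP and -3.18 with TGFB1, against -0.06 and -0.04 over all genes. The filter passes a gene that is high in only one group, so these counts describe the 41 and not the 93.

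The tandem-pore channels Kcnk13 and Kcnk6 led the microglial members. Kcnk13 (ENSMUSG00000045404, chr12:99964499-100062682), the channel of the microglial resting leak, ranged from 49.4 to 145 CPM with a median of 134 CPM in GFP microglia, and from 98.1 to 154 CPM with a median of 138 CPM in TGFB1 microglia. In non-microglia it stood at 0.294 and 1.35 CPM with GFP and at 0.978 and 0.975 CPM with TGFB1. Every microglia library was thus far above every non-microglia library. The pooled ratio was 153 with GFP (counting interval 65.5 to 472, from 1909 against 5 counts) and 138.5 with TGFB1 (63.5 to 378), with adjusted p of 3.91e-09 and 3.23e-09 (edgeR). Kcnk6 (ENSMUSG00000046410, chr7:29221926-29232515), a channel tied to potassium efflux and inflammasome activation in macrophages, ranged from 33.9 to 61.9 CPM with a median of 50.4 CPM in GFP microglia and from 39.8 to 67.2 CPM with a median of 45.9 CPM in TGFB1 microglia. It had 0 counts in all 4 non-microglia libraries. Against a floor of 3 counts over the group it was at least 107.5-fold higher with GFP and at least 102.6-fold higher with TGFB1 (edgeR adjusted p of 1.08e-12 and 1.46e-12).

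Kcnj2 (chr11:111066164-111076821), a strong inward rectifier, ranged from 15.9 to 30.3 CPM with a median of 24.2 CPM in GFP microglia and from 12.6 to 33.9 CPM with a median of 21.4 CPM in TGFB1 microglia. It had 0 counts in 3 non-microglia libraries and 0.975 CPM in TGFB1 replicate 2. The difference was at least 50.7-fold with GFP, and the ratio was 45.2 (15.3 to 220) with TGFB1. Kcnd1 (chrX:7822289-7838280), an A-type voltage-gated channel listed here among neuronal Kv4 subunits, ranged from 27.7 to 55.7 CPM with a median of 45.3 CPM in GFP microglia and from 30.0 to 47.4 CPM with a median of 43.0 CPM in TGFB1 microglia. It stood at 2.06 and 2.36 CPM in GFP non-microglia and at 4.57 and 4.87 CPM in TGFB1 non-microglia. No microglia library overlapped with a non-microglia library, and the ratio was 19.2 (11.3 to 35.3) with GFP and 8.56 (5.90 to 12.9) with TGFB1. Kcnd1 was the 1 member of 5 tested in the Kv4 and KChIP list that was higher in microglia.

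**Figure D1:**
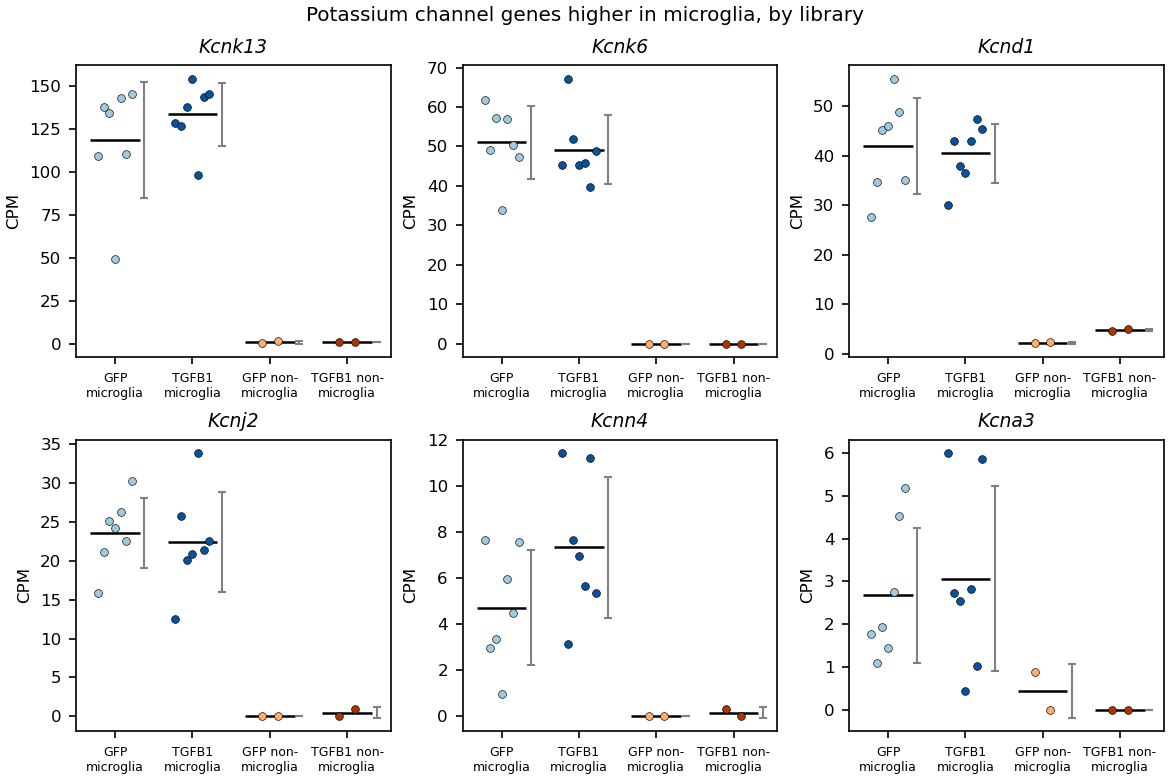
CPM of 6 members higher in microglia, 1 point per library in 4 groups, with the mean as a line and the SD as a grey bar. Kcnk13 reached 154 CPM in microglia and at most 1.35 CPM in non-microglia, and its lowest microglia library, GFP replicate 5, stood at 49.4 CPM.

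The other microglial members were low. Kcnn4, a calcium-activated channel of immune cells, ranged from 0.968 to 7.66 CPM with a median of 4.51 CPM in GFP microglia and from 3.13 to 11.5 CPM with a median of 6.96 CPM in TGFB1 microglia. It had 1 count in the 4 non-microglia libraries, and was at least 9.90-fold higher with GFP, with a ratio of 44.3 (7.77 to 1764) with TGFB1. Kcna3, a delayed rectifier of lymphocytes and activated microglia, averaged 2.67 ± 1.58 CPM in GFP and 3.06 ± 2.16 CPM in TGFB1 microglia (SD, n = 7 each), and 0.881 and 0 CPM in GFP non-microglia. It had 44 counts in GFP microglia against 3 in non-microglia, a ratio of 5.88 (1.89 to 29.6), and 44 against 0 with TGFB1, at least 6.07-fold. Kcnk12, a close relative of Kcnk13, had 39 against 0 counts with GFP, at least 5.22-fold, and 51 against 2 with TGFB1, a ratio of 10.6 (2.77 to 89.4). Kcnk9, an acid-sensitive leak channel, had 14 against 0 counts with GFP, at least 1.87-fold, and 38 against 0 with TGFB1, at least 5.24-fold. Libraries of the 2 fractions overlapped for Kcnk12 and Kcnk9 with GFP and for Kcnk12 with TGFB1. Without GFP non-microglia replicate 2 the calls of Kcnk12, Kcna3 and Kcnk9 with GFP were lost, and 5 members were called higher, at adjusted p of 0.0582, 0.274 and 0.138 for the 3 (edgeR). Kcnk12 (0.068) and Kcnk9 (0.155) were also lost without GFP non-microglia replicate 1, Kcna3 without GFP microglia replicate 7 (0.0634) or 8 (0.0671), and Kcnk9 without GFP microglia replicate 3 (0.0743) or 8 (0.0556). In TGFB1 retinas Kcnk12 was lost without TGFB1 non-microglia replicate 2 (0.212). DESeq2 did not call Kcna3 and Kcnk9 with GFP or Kcnk12 with TGFB1. Without the filter on low counts, edgeR did not call Kcnk9 with GFP (adjusted p = 0.0577).

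Of the 6 microglial channels listed from the literature, 5 were higher in microglia in each treatment and Kcna5 was lower. Kcna5, a delayed rectifier described in microglia and in smooth muscle, averaged 0.804 ± 1.05 CPM in GFP and 0.375 ± 0.791 CPM in TGFB1 microglia (SD, n = 7 each). In non-microglia it stood at 8.23 and 6.398 CPM with GFP and at 14.4 and 13.7 CPM with TGFB1, above every microglia library. The log2 difference was -3.27 (SE 0.74, adjusted p = 0.000427) with GFP and -5.42 (SE 0.79, adjusted p = 1.73e-06) with TGFB1 (edgeR).

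The leak channel Kcnk1 and several calcium-activated channels were among the non-microglial members. Of 6 tested Kcnk members, 4 were higher and 2 lower in microglia in each treatment. Kcnk1 (chr8:125995170-126030685), a weakly conducting leak channel, stood at 175 and 186 CPM in GFP non-microglia and at 152 and 169 CPM in TGFB1 non-microglia. In microglia it ranged from 0 to 10.6 CPM with GFP and from 0 to 9.18 CPM with TGFB1, so the fractions were far apart. It was 56.1-fold lower in microglia with GFP (42.4 to 75.8) and 74.5-fold lower with TGFB1 (52.4 to 109.5). Kcnn2, a small-conductance calcium-activated channel, stood at 89.3 and 80.8 CPM in GFP non-microglia and at 65.9 and 73.8 CPM in TGFB1 non-microglia, against at most 7.52 CPM in a microglia library. Kcnma1 (chr14:23289431-24014491), the pore of the large-conductance calcium- and voltage-activated channel, stood at 101 and 134 CPM in GFP non-microglia and at 177 and 158 CPM in TGFB1 non-microglia. It ranged from 4.78 to 44.2 CPM with a median of 15.15 CPM in GFP microglia and from 8.60 to 39.5 CPM with a median of 15.15 CPM in TGFB1 microglia. Groups did not overlap, and its log2 difference was -2.67 (SE 0.46, adjusted p = 0.000108) with GFP and -3.23 (SE 0.46, adjusted p = 1.38e-05) with TGFB1 (edgeR). All 4 tested members of the list of calcium- and sodium-activated channels were lower in both treatments, against 34.2% and 34.4% of all genes. That list leaves out the calcium-activated Kcnn4, which was listed with the microglial channels and was higher in microglia. The others of the 4 were Kcnn1, at 6.24 against 1.13 CPM with GFP, and Kcnmb4, an accessory subunit of the Kcnma1 channel, at 5.46 against 0.701 CPM.

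Accessory subunits were also on the non-microglial side. Kcne2 (chr16:92292389-92298129), a small beta subunit of several voltage-gated channels, stood at 53.5 and 74.4 CPM in GFP non-microglia and at 78.3 and 67.9 CPM in TGFB1 non-microglia. It had 17 counts in all GFP and 4 in all TGFB1 microglia libraries, 59.1-fold lower (36.5 to 102.5) and 271-fold lower (105 to 1000). Its relative Kcne1l stood at 8.23 and 19.2 CPM with GFP and at 8.48 and 8.77 CPM with TGFB1 in non-microglia, with the GFP libraries wide apart. Kcnab2, a cytoplasmic beta subunit of Kcna channels, stood at 35.8 and 42.8 CPM with GFP and at 46.0 and 35.1 CPM with TGFB1, against 0.978 to 5.65 CPM in all 14 microglia libraries. Of 5 tested Kv1 and beta subunits, Kcna2, Kcna6, Kcnab1 and Kcnab2 were lower in both treatments. Kcna2 averaged 16.1 CPM in GFP non-microglia against 3.19 CPM in GFP microglia, Kcna6 21.3 against 1.79 CPM and Kcnab1 14.8 against 2.05 CPM. Kcnab3 averaged 4.63 CPM in GFP microglia against 4.60 CPM in GFP non-microglia and was not called. Kcna6 shares 39.6% of its exon bases with other genes, Kcnj13 49.1% and Kcnmb4 31.5%. The largest partners are Gm26673, Gigyf2 and Kcnmb4os2, and reads of overlapping genes may be counted with these members.

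The M-current and EAG list had 5 of 6 tested members lower in both treatments. Among these were the EAG and ERG channels Kcnh2, Kcnh5, Kcnh6 and Kcnh7, with non-microglial means of 6.77 to 18.3 CPM in GFP retinas. Kcnq3 averaged 0.785 CPM in GFP microglia and 0.168 CPM in GFP non-microglia and was not called in either treatment. Kcnj9, a G protein-gated inward rectifier, averaged 3.89 CPM in GFP microglia against 15.0 CPM in GFP non-microglia and was lower in both treatments. Kcng4, a silent subunit, Kcnip2, a KChIP subunit, and Kcnk3, an acid-sensitive leak channel, were lower too, with non-microglial means of 8.77, 3.63 and 4.79 CPM in GFP retinas. Kcnip4 was lower in GFP retinas only and Kcnd3 in TGFB1 retinas only. The difference between treatments was 0.82 (SE 1.09) for Kcnip4 and -1.52 (SE 1.12) for Kcnd3 on the log2 scale, with an edgeR adjusted p of 0.9999 for both. Some of these calls rested on the method or on single libraries. With GFP, DESeq2 did not call Kcnh5 (adjusted p = 0.0645) or Kcnh7 (0.0558). An edgeR fit of the GFP libraries alone did not call Kcnh7 (adjusted p = 0.0538). Without GFP non-microglia replicate 1 the calls with GFP were lost for Kcnip2 (edgeR adjusted p = 0.144), Kcnn1 (0.0536), Kcnj9 (0.0582), Kcnip4 (0.0903) and Kcnh7 (0.116). Without replicate 2 they were lost for Kcng4 (0.0988) and Kcnh7 (0.142), and without GFP microglia replicate 3 for Kcnh7 (0.0503). With TGFB1, Kcnh7 was lost without either non-microglia library (0.106 each), Kcnj13 without replicate 1 (0.0969) and Kcnd3 without replicate 2 (0.218).

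**Figure D2:**
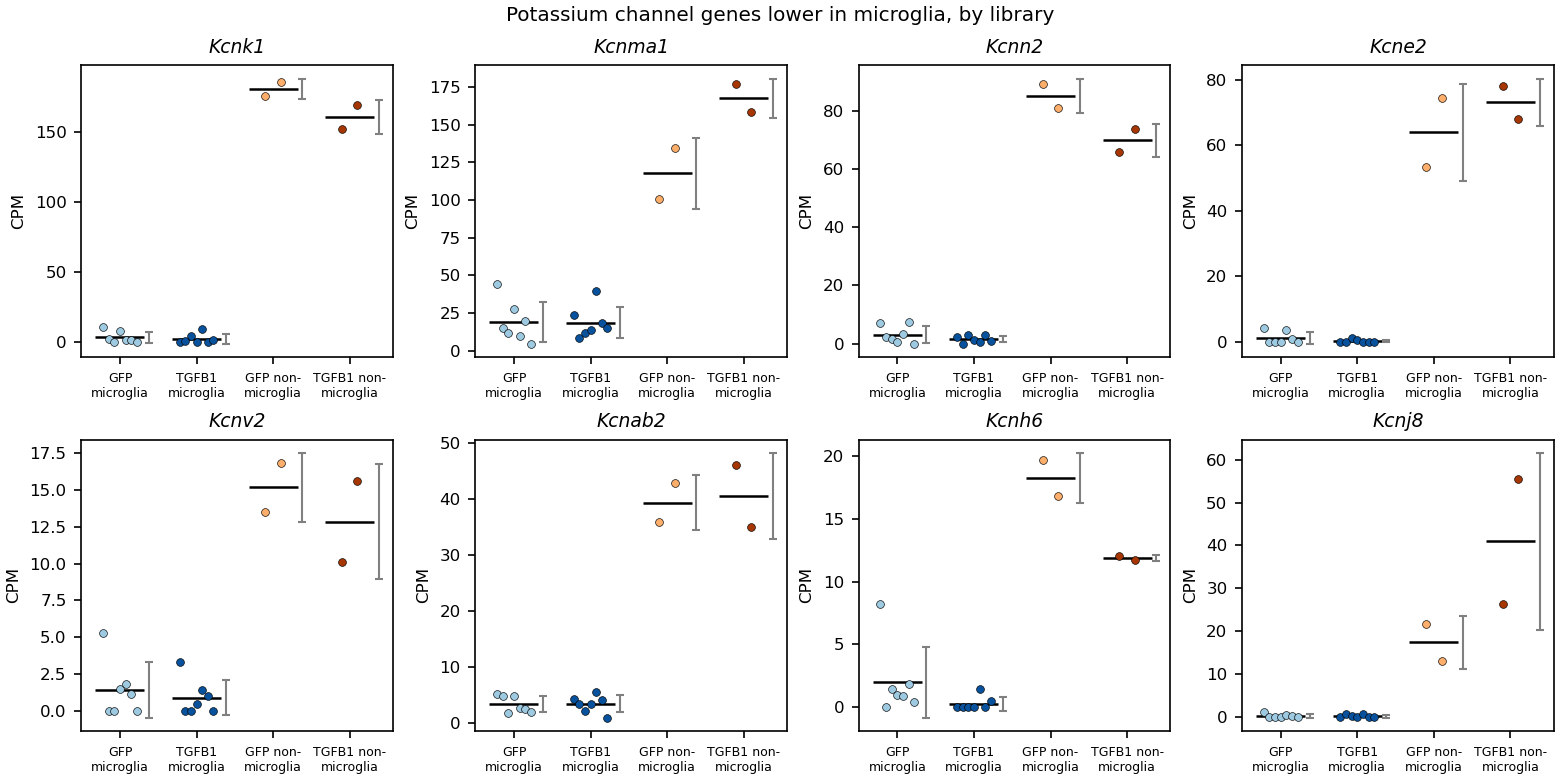
CPM of 8 members lower in microglia, 1 point per library in 4 groups, with the mean as a line and the SD as a grey bar. Kcnk1 lay between 152 and 186 CPM in non-microglia and at or below 10.6 CPM in microglia.

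Of the photoreceptor channels, Kcnv2, a silent subunit of photoreceptors, was measurable in the non-microglia. It stood at 13.5 and 16.8 CPM with GFP and at 10.1 and 15.6 CPM with TGFB1, against means of 1.39 and 0.877 CPM in microglia. It was lower in microglia in both treatments. Kcnj14, an inward rectifier, had 2 counts in GFP and 3 in TGFB1 microglia, 0 in GFP and 6 in TGFB1 non-microglia, and was not tested.

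Of the glial, pigment epithelial and pericyte channels, Kcnj8 and Kcnj13 were tested and both were lower in microglia. Kcnj8 (chr6:142564837-142571614), the ATP-sensitive inward rectifier of pericytes, stood at 21.7 and 13.1 CPM in GFP non-microglia and at 26.4 and 55.6 CPM in TGFB1 non-microglia, and had 4 counts in each set of 7 microglia libraries. Kcnj13, an inward rectifier of pigment epithelium, stood at 8.23 and 9.09 CPM with GFP and at 8.48 and 3.57 CPM with TGFB1 in non-microglia, with microglial means of 1.38 and 1.08 CPM. Kcnk2, a mechanosensitive leak channel, had 4 counts in GFP and 8 in TGFB1 microglia, and 5 in GFP and 1 in TGFB1 non-microglia. Kcnj16, a partner subunit of glial inward rectifiers, had 5 counts in GFP and 11 in TGFB1 microglia and 0 in the non-microglia libraries. At this depth 52 members passed no filter. Their highest group mean was 4.14 CPM, of Kcnc1 in GFP non-microglia, and 30 of them were under 1 CPM in every group. Among these 52, Kcnk7 had 22 and 14 counts in GFP and TGFB1 microglia against 0 and 1 in non-microglia, a gene singled out after its values were seen.

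**Figure D3:**
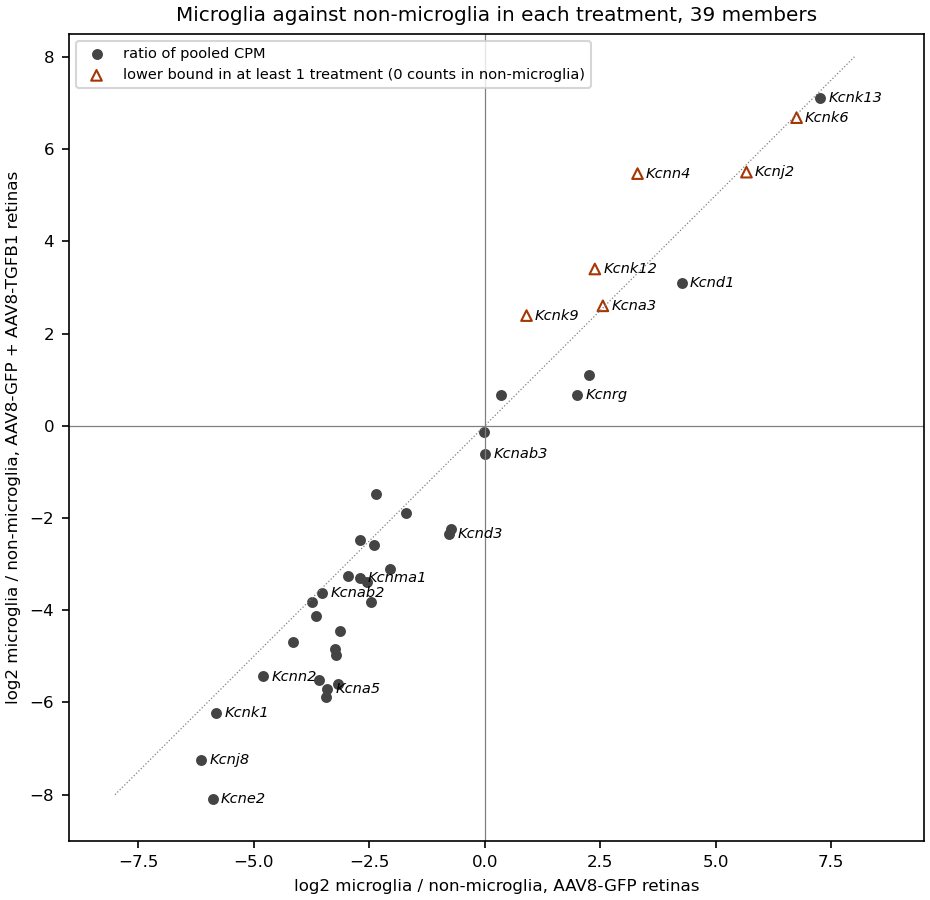
log2 ratio of pooled CPM, microglia over non-microglia, in GFP retinas (x axis) and in TGFB1 retinas (y axis) for 39 of the 41 tested members; open triangles stand for members with 0 counts in non-microglia of at least 1 treatment, placed at their lower bound. Kcnk13 and Kcnk6 lie at the upper right, and Kcnk1, Kcnj8 and Kcne2 at the lower left.

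Among microglia libraries, the non-microglial members were highest in those with most bipolar and amacrine marker RNA. The 25 members lower in both treatments summed to 20.3 to 154 CPM in GFP microglia libraries and to 19.9 to 104 CPM in TGFB1 microglia libraries. The highest were GFP replicate 2 and TGFB1 replicate 6. The same 2 libraries had the highest summed bipolar and amacrine markers of their groups, 273 CPM against 21.1 to 75.5 CPM in the other GFP libraries and 130 CPM against 25.4 to 63.1 CPM in the other TGFB1 libraries. They were also highest in endothelium and pericyte markers, at 113 and 63.5 CPM, but not in photoreceptor markers, which were highest in GFP replicate 6 at 104 CPM and TGFB1 replicate 5 at 35.7 CPM. GFP replicate 2 and TGFB1 replicate 6 also had the fewest counts of their groups, 1766307 and 1582451. Their summed microglia markers were the lowest of their groups, at 34240 and 36240 CPM. As a share of the non-microglial level, the 25 members stood at a median of 11% with GFP (1.22% to 33.1%) and 5.38% with TGFB1 (0.299% to 28.7%). Bipolar markers stood at 4.19% and 1.71%, and amacrine markers at 8.67% and 5.93%. Photoreceptor markers stood at 1.55% and 1.08%, endothelium and pericyte markers at 6.19% and 5.06%, and Mueller glia markers without Apoe, Clu and Vim at 4.10% and 3.62%. Of those left out, Apoe averaged 4669 CPM in GFP microglia against 5196 CPM in GFP non-microglia, and 5302 against 4670 CPM with TGFB1. Clu averaged 72.0 against 3060 CPM and Vim 60.5 against 645 CPM with GFP. Single libraries carried part of the shares above. Without GFP replicate 2 the median of the members with GFP was 6.12%, with bipolar markers at 2.43% and amacrine markers at 5.99%. Without TGFB1 replicate 6 the median with TGFB1 was 2.96%, with bipolar markers at 1.41% and amacrine markers at 3.71%. The part of such RNA in the level of these members was not tested. Without those 2 libraries, an alternative chosen after seeing the data, 8 members were called higher and 26 lower with GFP, and 7 and 27 with TGFB1.

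**Figure D4:**
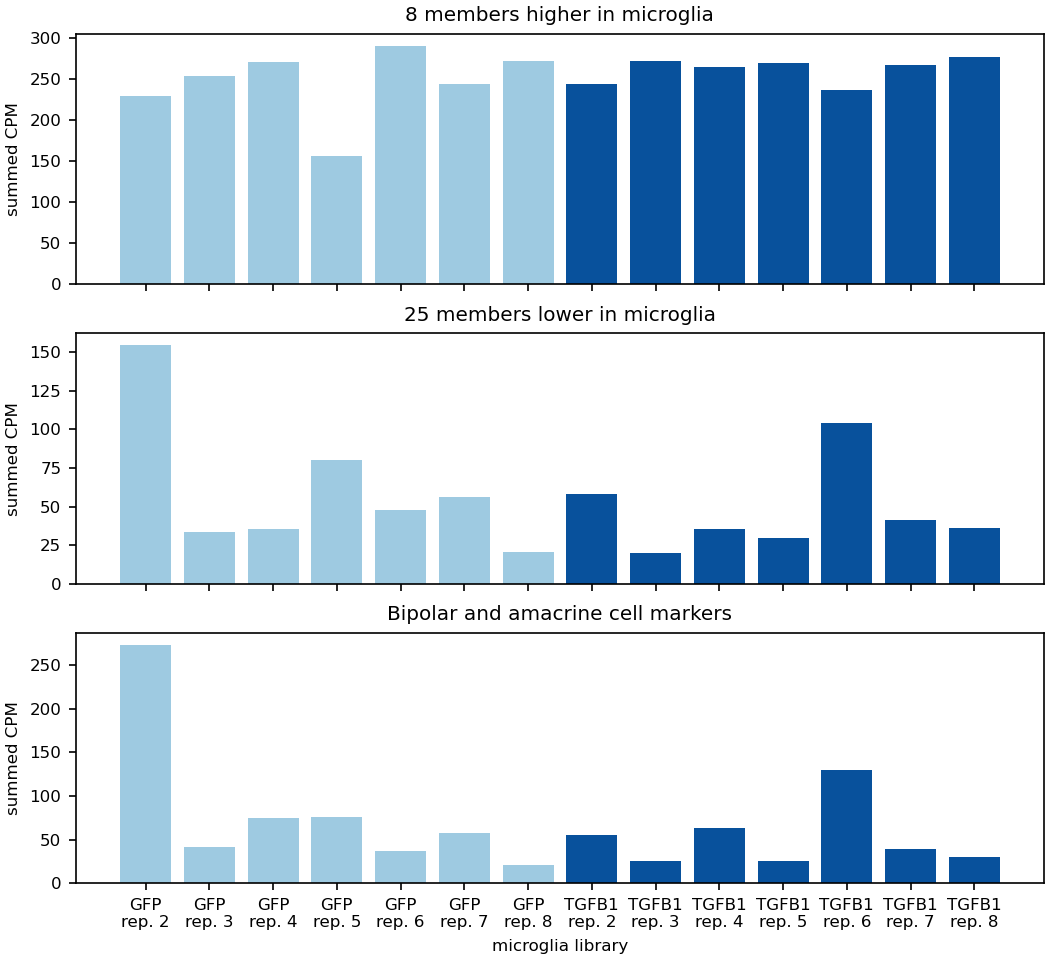
Summed CPM in each of the 14 microglia libraries of the 8 members higher in microglia (top), of the 25 members lower there (middle) and of bipolar and amacrine markers (bottom). The middle and bottom bars are highest in GFP replicate 2 and TGFB1 replicate 6, at 154 and 104 CPM for the 25 members, and the top bar is lowest in GFP replicate 5, at 157 CPM.

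The response to TGFB1 was tested within each fraction. In microglia none of the 6 members that passed the filter was called, and 0 had an unadjusted p under 0.05 (edgeR; DESeq2 also called 0). Of all 10970 genes tested in this comparison, 0.310% were called, 0.237% higher and 0.0729% lower, and 6.65% had an unadjusted p under 0.05. The GFP and TGFB1 libraries overlapped for all 6, and did not for 0.219% of all genes. The median log2 fold change of the 6 was -0.05, against 0.00 over all genes. Kcnn4 had the largest value, 0.63 (SE 0.34, adjusted p = 0.811), with 6 of 7 TGFB1 libraries above the GFP mean and groups that overlapped. Kcnk13 stood at 0.17 (SE 0.19, adjusted p = 0.931), and at 0.03 without GFP replicate 5. Kcnj2 at -0.09 (SE 0.17), Kcnd1 at -0.06 (SE 0.14), Kcnk6 at -0.05 (SE 0.13) and Kcnma1 at -0.05 (SE 0.47) were near 0, with overlapping groups.

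In non-microglia 0 of 30 tested members were called, 15 with positive and 15 with negative values and a median of 0.02 against 0.00 over all genes. edgeR called 0.390% of all 13598 genes, 0.338% higher and 0.0515% lower, and DESeq2 called 0 members but gave no adjusted p for Kcnh5, Kcnj8, Kcna5, Kcnn1, Kcnh6, Kcne1l, Kcnj13 and Kcnv2. An unadjusted p under 0.05 was reached by 7 of the 30 members (23.3%), against 7.63% of all genes. Groups did not overlap for 14 of the 30 members (46.7%), 9 higher and 5 lower, against 36.4% of all genes, 17.5% higher and 18.9% lower. None of these values is a call. Kcnma1, at the levels given above, had a log2 fold change of 0.52 (SE 0.13, adjusted p = 0.106), with both TGFB1 libraries above both GFP libraries. It was called without the filter on low counts (adjusted p = 0.00362), and without GFP replicate 2 (adjusted p = 2.86e-05). Without GFP replicate 1 its value was 0.32 (adjusted p = 0.378), and without TGFB1 replicate 1 it was 0.44 (adjusted p = 0.551).

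Kcnj8 had the highest value, 1.23 (SE 0.38, adjusted p = 0.449), from 74 and 39 counts with GFP and 81 and 171 with TGFB1. TGFB1 replicate 2 alone stood far above the rest, and the other 3 libraries ranged from 13.1 to 26.4 CPM. It was called without the filter (adjusted p = 5.50e-05), without GFP replicate 1 (2.54e-05) and without TGFB1 replicate 1 (0.000267). Without TGFB1 replicate 2 its value was 0.60 (adjusted p = 0.857). Summed markers of endothelium and pericytes were 978 and 498 CPM in GFP replicates 1 and 2 and 692 and 955 CPM in TGFB1 replicates 1 and 2. Within each treatment the replicate with more Kcnj8 was thus the one with more of these markers, and their part in the result was not tested.

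Kcnh5, a voltage-gated channel of the EAG type, stood at 7.05 and 10.1 CPM with GFP and at 17.9 and 14.6 CPM with TGFB1, a log2 fold change of 0.94 (SE 0.33, adjusted p = 0.419). Kcna5 at 0.93 (SE 0.35, adjusted p = 0.458) and Kcnn1 at 0.95 (SE 0.38, adjusted p = 0.522) also had non-overlapping groups. On the lower side, Kcnh6 stood at 19.7 and 16.8 CPM with GFP and at 12.1 and 11.7 CPM with TGFB1, a log2 fold change of -0.61 (SE 0.29, adjusted p = 0.637). Kcnn2 at -0.28 (SE 0.14, adjusted p = 0.663), Kcne1l at -0.65 (SE 0.39, adjusted p = 0.789) and Kcnk1 at -0.16 (SE 0.10, adjusted p = 0.825) were also among the 5 of smallest p. Bipolar markers differed between the same libraries: 5 of 7 were called higher with TGFB1, and their sum was 1336 and 1248 CPM with GFP against 2167 and 1886 CPM with TGFB1. Erythroid markers were called lower for 3 of 3, with sums of 731 and 654 CPM with GFP against 276 and 265 CPM with TGFB1. Mueller glia markers had negative values for 8 of 8 and photoreceptor markers for 5 of 7, with 0 called in either list and 3 and 2 at an unadjusted p under 0.05 (edgeR). The part of cell composition in the values of these members was not tested.

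**Figure D5:**
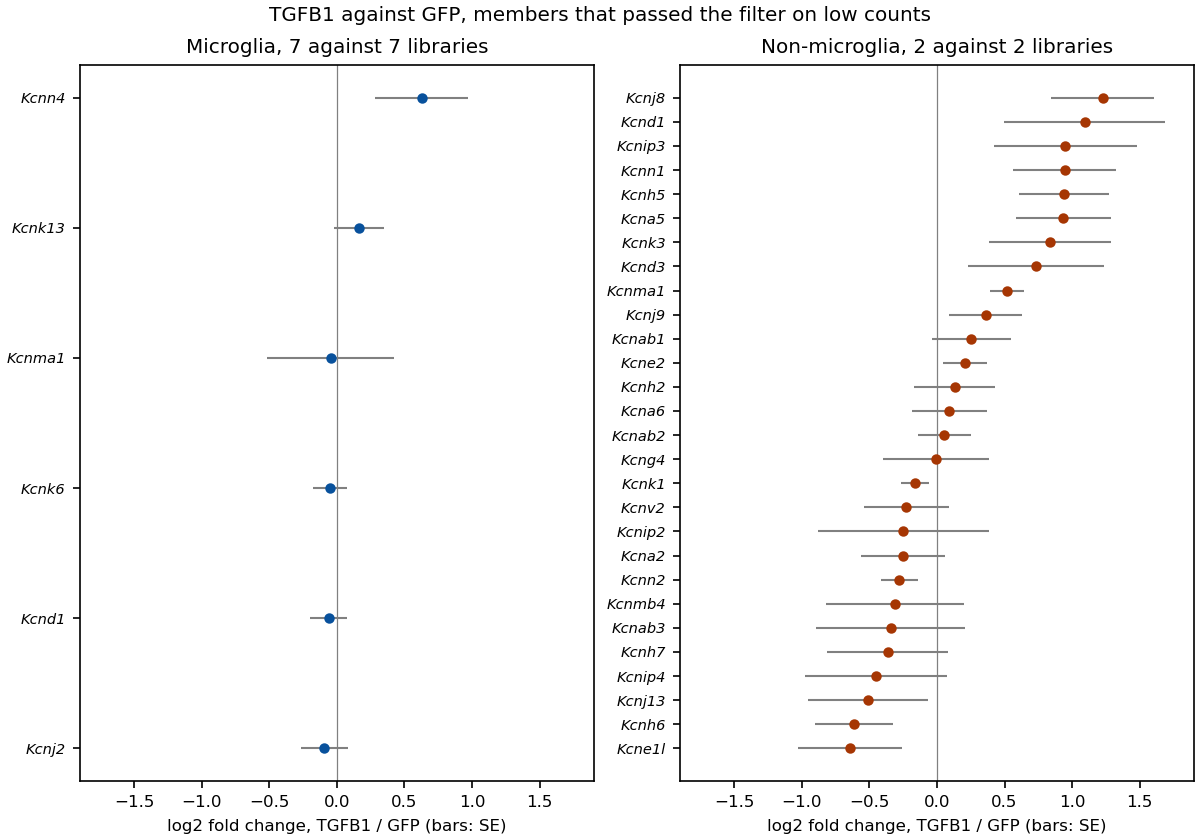
log2 fold change of TGFB1 over GFP with its SE as a bar, for the 6 members tested in microglia (left) and 28 of the 30 tested in non-microglia (right). None was called; the highest values are those of Kcnn4 in microglia (0.63, SE 0.34) and Kcnj8 in non-microglia (1.23, SE 0.38).

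The difference of the TGFB1 effect between the fractions was called for 0 of 41 members by edgeR, by which 0.0131% of all 15321 genes were called, and for 0 by DESeq2. An unadjusted p under 0.05 was reached by 1 member, Kcnd1, at -1.14 (SE 0.48, edgeR adjusted p = 0.9999), which is 2.44% of the members against 4.64% of all genes. In Kcnd1 this came from 14 counts in GFP non-microglia against 29 in TGFB1 non-microglia, with 669 and 600 counts in microglia. The median of the members was -0.63 against -0.02 over all genes. That of the 6 listed microglial channels was -0.77 (5 of 6 negative), but several of these rest on very few non-microglial counts. GFP and TGFB1 non-microglia had 0 and 3 counts of Kcnj2, 0 and 1 of Kcnn4 and 3 and 0 of Kcna3. Kcnk6 had 0 in both, so the sign of its value (-0.04, SE 99.9) has no meaning. Within microglia the 4 tested of these channels had a median of 0.06, 2 of them positive. In the difference of effects, markers of several other cells had negative medians. These were -1.25 for bipolar cells (7 of 7 negative), -0.56 for Mueller glia (7 of 8) and -0.56 for amacrine cells (4 of 4). Medians were also negative for photoreceptors (-0.29, 5 of 7), endothelium and pericytes (-0.26, 5 of 6) and erythroid cells (-1.22, 2 of 3). They were positive for ganglion cells (0.60, 2 of 3 positive), pigment epithelium (0.04, 2 of 3) and other leukocytes (0.28, 1 of 2). In these marker lists 0 were called and 0 had an unadjusted p under 0.05 (edgeR). The part of these markers in the median of the members was not tested.

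Genes that work with potassium channels were taken from 2 further lists. Of 12 tested partner genes, 9 were lower and 1 higher in microglia in each treatment. Lower in both were Aqp4, the water channel of Mueller glia endfeet, at 474 CPM in GFP non-microglia against 7.35 CPM in GFP microglia, Abcc9, the sulfonylurea receptor that pairs with Kcnj8, at 27.0 against 3.36 CPM, and Amigo1, an adhesion protein that joins voltage-gated channels, at 22.5 against 3.75 CPM. Dpp10, a Kv4 partner, was higher in GFP microglia at 2.32 against 0.147 CPM. Of 15 tested HCN channels, pumps and cotransporters, 6 were lower and 1 higher with GFP, and 7 lower and 2 higher with TGFB1. In the treatment comparison of non-microglia, edgeR called 0 of 11 tested partner genes, with 1 at an unadjusted p under 0.05, and 1 of 15 genes of the other list. In microglia it called 0 of 7 and 0 of 12, with 0 and 1 at an unadjusted p under 0.05.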

How the data were processed

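Members and gene lists were chosen with earlier results of these data known. Per the file headers, the deposited values are read counts, not normalized, with 1 column for each of 18 libraries and 1 row for each Ensembl gene. Per the submitters' processing notes, STAR, featureCounts and DESeq2 were used with GRCm38.p6. Their versions, the annotation release and the strand setting are not given in the sources used, so antisense or overlapping genes may share reads. Of 54532 identifiers, 54495 were matched to GENCODE M21.

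The counts were tested with edgeR 4.0.16 in R 4.3.3 (TMM, filterByExpr, robust quasi-likelihood F test, Benjamini-Hochberg adjustment over all genes tested, called under 0.05). TGFB1 was compared with GFP within each fraction from its own libraries, and fractions and the difference of effects from one fit of all 18. SE is the size of the log2 fold change divided by the square root of F. CPM use the TMM-scaled sizes of the 18-library fit. Counting intervals (exact, 95%) and floors (3 counts over a group) cover counting error only, since reads carry no molecular identifiers. Totals were 1582451 to 3064027 counts. The fits were tested on simulated counts. Changes of 1 on the log2 scale were recovered for 91.5% of changed genes in the microglia fit and 67.0% in the non-microglia fit. For microglia against non-microglia with GFP the share was 49.5%. With changes of 2 on the log2 scale the shares were 98.1%, 89.5% and 85.4%.

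Named were all called members, up to 30 per direction, the 5 members of smallest p per direction in treatment comparisons, all measured members of 3 short lists, and the 8 highest per kilobase, except a few genes that are counted but not reported here. Alternatives were RLE size factors, no filter, DESeq2 1.42.0, a replicate block, other fits, covariates and leaving out libraries. Correlations gave no sign that replicate numbers pair the libraries, but cannot exclude it. No columns were left out.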

Additional observations from a re-analysis of the deposited data

Results flagged for a closer look

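Kcnk13 stood at 49.4 CPM in GFP microglia replicate 5, the lowest of its 7 libraries and far from the next at 109 CPM. It was the 1 value that stood apart among 12 groups tested. Chance gives such a value in about 1 in 20 groups, so 1 among 12 groups can arise by chance. The same library had the lowest Kcnk6 of its group at 33.9 CPM and the lowest Kcnn4 at 0.968 CPM. Its microglia markers summed to 38730 CPM, within the range of its group, and its Mueller glia markers without Apoe, Clu and Vim to 770 CPM, the highest of its group. The part of these values in the low Kcnk13 was not tested.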

How the results depend on the processing

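Under RLE size factors, no filter, DESeq2, fits of 1 treatment alone and the omission of single libraries, the members called in microglia against non-microglia numbered 5 to 9 higher and 23 to 34 lower with GFP, and 7 to 8 and 24 to 35 with TGFB1, against 8 and 26. The 5 came from leaving out GFP non-microglia replicate 2, and 9 from leaving out GFP microglia replicate 2. RLE scaling moved the median of all genes by -0.12 and -0.13 in these contrasts. For TGFB1 in non-microglia, 2 members were called higher without the filter and 2 with a replicate block, Kcnma1 and Kcnj8, and 0 to 1 when single libraries were left out. DESeq2 gave no adjusted p for 8 named members in that comparison. Same-numbered libraries correlated at -0.12 to 0.22 in microglia, where 1 of 7 matched its own number best. In non-microglia both replicates gave -0.07, and 2 libraries per group cannot decide the question. The numbers were not taken as pairs, but these correlations cannot exclude pairing. In microglia the block called 0 members, and over all genes 41 higher and 19 lower, against 26 and 8 without it. No member was called in the difference of effects under any alternative run. Signs turned for values near 0. In microglia, leaving out single libraries gave Kcnj2 -0.21 to 3.645e-05, Kcnd1 -0.13 to 0.0202, Kcnk6 -0.14 to 0.0044 and Kcnma1 -0.32 to 0.29, the highest without TGFB1 replicate 2, GFP replicate 6, GFP replicate 2 and GFP replicate 2. Kcnma1 also turned without GFP replicate 5 and TGFB1 replicates 3, 4 and 5, and to 0.0164 with the block. Kcnk6 turned to 0.0104 with the covariate for other cells' markers, and without the 2 libraries high in bipolar and amacrine markers Kcnk6 stood at 0.0142 and Kcnma1 at 0.0208. In non-microglia the same gave Kcne1l -1.15 to 0.0823 (without GFP replicate 2) and Kcnv2 -0.57 to 0.0493 (without TGFB1 replicate 1). The cause was not tested. Over all genes, calls for TGFB1 ranged from 10 to 41 higher and 4 to 25 lower in microglia (26 and 8), and from 4 to 89 and 0 to 33 in non-microglia (46 and 7). Depth limits the 52 untested members.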
